A study of Mus musculus with 9 samples.

Results

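The genes described here are the 10 core and output genes of the mammalian circadian clock: the activators Arntl and Clock, the repressors Per1, Per2, Per3, Cry1 and Cry2, the nuclear receptor genes Nr1d1 and Nr1d2, and the output gene Dbp. They were taken by symbol from tables that list 25175 gene symbols, and all 10 were found in each of the 9 libraries. The libraries were made from mRNA captured on beads from HL-1 cells (immortalised mouse heart muscle cells of atrial origin), grown in Claycomb medium. The 3 groups, with 3 libraries each, had received vehicle (DMSO at 0.1%), ivermectin at 5 µM or importazole at 10 µM, and every library was made after 24 h of treatment. A DMSO level was found in the labels for vehicle only. Ivermectin is an antiparasitic drug also used to block import into the nucleus by importin α/β, and importazole is a small molecule that blocks importin-β. The compounds are not structural analogs and their doses differ, so the direct comparison holds only for these doses. The labels name no transgene, clone or synchronising step, and they do not say that replicates were separate cultures, so p-values measure only the spread between these libraries, which may be technical. Since there was 1 time point, a change in the level of a rhythmic transcript and a change in its phase cannot be told apart.

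The clock is a feedback loop of transcription. CLOCK and BMAL1, the product of Arntl, bind E-box sequences and switch on the Per, Cry, Nr1d and Dbp genes; PER and CRY proteins then enter the nucleus and inhibit CLOCK and BMAL1. A linked loop sets Arntl itself, which REV-ERBα and REV-ERBβ (the products of Nr1d1 and Nr1d2) repress and ROR receptors activate through sequences called ROREs. DBP carries the rhythm onward through D-box sequences, where NFIL3 opposes it. In heart muscle the clock is known for daily variation in metabolism and electrical properties.

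Promoter sequences show which of these elements lie close to the start of each member. RefSeq windows on GRCm38.p6, from 250 bases before to 50 bases after an annotated start, were found for 9 of the 10 members; Per2 had none. The letters searched, on both strands, were CACGTG (E-box), CACGTT (the variant E′-box), TTATGTAA and TTACGTAA (D-box), TAGGTCA (RORE core) and TGACGTCA (cAMP response element); no matches overlapped. Among all 32851 windows, 7.15% held the E-box, 4.68% the E′-box, 1.06% a D-box, 2.61% the RORE core and 1.79% the cAMP response element. The stretches below run 5′ to 3′ on the strand of the gene, and matches are in capitals. Per1 is shown because it is the member that passed a test, Cry1 because it holds the same E-box, and Per3, Nr1d1 and Arntl because they hold the other elements of the loop.
Per1: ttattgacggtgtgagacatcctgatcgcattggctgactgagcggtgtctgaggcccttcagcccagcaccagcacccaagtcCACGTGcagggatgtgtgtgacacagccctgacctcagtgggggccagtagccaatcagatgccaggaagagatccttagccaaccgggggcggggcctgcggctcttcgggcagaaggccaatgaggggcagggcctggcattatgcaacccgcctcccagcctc
Cry1: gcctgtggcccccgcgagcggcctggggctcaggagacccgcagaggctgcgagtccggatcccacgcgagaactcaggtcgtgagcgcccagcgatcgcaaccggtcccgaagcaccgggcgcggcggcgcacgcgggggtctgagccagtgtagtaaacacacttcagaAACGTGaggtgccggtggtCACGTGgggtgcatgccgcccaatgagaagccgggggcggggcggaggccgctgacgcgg
Per3: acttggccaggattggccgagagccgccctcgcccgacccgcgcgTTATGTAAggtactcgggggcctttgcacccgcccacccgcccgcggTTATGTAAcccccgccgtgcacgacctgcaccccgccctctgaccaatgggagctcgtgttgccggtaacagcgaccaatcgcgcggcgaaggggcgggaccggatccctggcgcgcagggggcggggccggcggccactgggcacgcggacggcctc
Nr1d1: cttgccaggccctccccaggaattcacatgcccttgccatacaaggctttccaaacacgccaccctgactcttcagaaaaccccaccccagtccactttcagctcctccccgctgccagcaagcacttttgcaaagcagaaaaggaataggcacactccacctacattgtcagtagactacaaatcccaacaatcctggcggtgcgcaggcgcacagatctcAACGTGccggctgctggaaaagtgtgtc
Arntl: aaggcagaaagTAGGTCAgggacggaggtg

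The Per1 stretch is chr11:69098699-69098948 (plus strand), with the E-box 166 bases before an annotated start. The window of the other Per1 start searched held no match. The Cry1 stretch is chr10:85185055-85185304 (minus strand), with the E′-box (as AACGTG) 79 and the E-box 60 bases before the start. The Per3 stretch is chr4:151044666-151044915 (minus strand), with D-boxes 205 and 158 bases before the start. The Nr1d1 stretch is chr11:98775378-98775627 (minus strand), with an E′-box 28 bases before the start. The Arntl stretch of 30 bases, chr7:113207530-113207559 (plus strand), lies just after an annotated start and begins its RORE core at base 31 of the transcript. The window of the other Arntl start searched held no match. Cry2 also held an E′-box, 166 bases before its start. The windows of Clock, Nr1d2 and Dbp held none of these letters, and the cAMP response element was in no member's window. A match describes these letters only.

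In vehicle the clock genes were expressed at low to middling levels, spanning 1.84 to 12.7 FPKM (fragments scaled by the length of the transcript and the size of the library, a scale that allows levels of different genes to be compared). All 10 passed the filter of at least 1 FPKM in at least 3 libraries, as did 11337 genes in all. The highest were the nuclear receptor genes, with vehicle means of 12.7 ± 0.806 FPKM for Nr1d1 and 11.4 ± 0.900 FPKM for Nr1d2 (SD, n = 3, as for every mean here). Next came Clock at 9.01 ± 0.0527, Dbp at 7.90 ± 0.659, Per1 at 6.35 ± 0.255, Cry1 at 6.09 ± 0.262, Per3 at 4.28 ± 0.583 and Cry2 at 2.70 ± 0.335 FPKM. Lowest were Arntl at 1.84 ± 0.128 and Per2 at 1.84 ± 0.401 FPKM, so the activator Arntl lay far below its partner Clock. Between neighbours in this order the vehicle libraries overlapped only for Per1 with Cry1 and for Arntl with Per2. With ivermectin the ranges of Nr1d1, Nr1d2 and Clock also came to overlap as neighbours, at means of 11.1, 10.8 and 10.5 FPKM. Over all 9 libraries the ratio of the highest to the lowest value ran from 1.22 for Clock and for Nr1d2 to 2.39 for Per2. Against the mean levels of all genes tested, Nr1d1 stood at the 55.7th percentile and Per2 at the 8.57th.

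**Figure D1:**
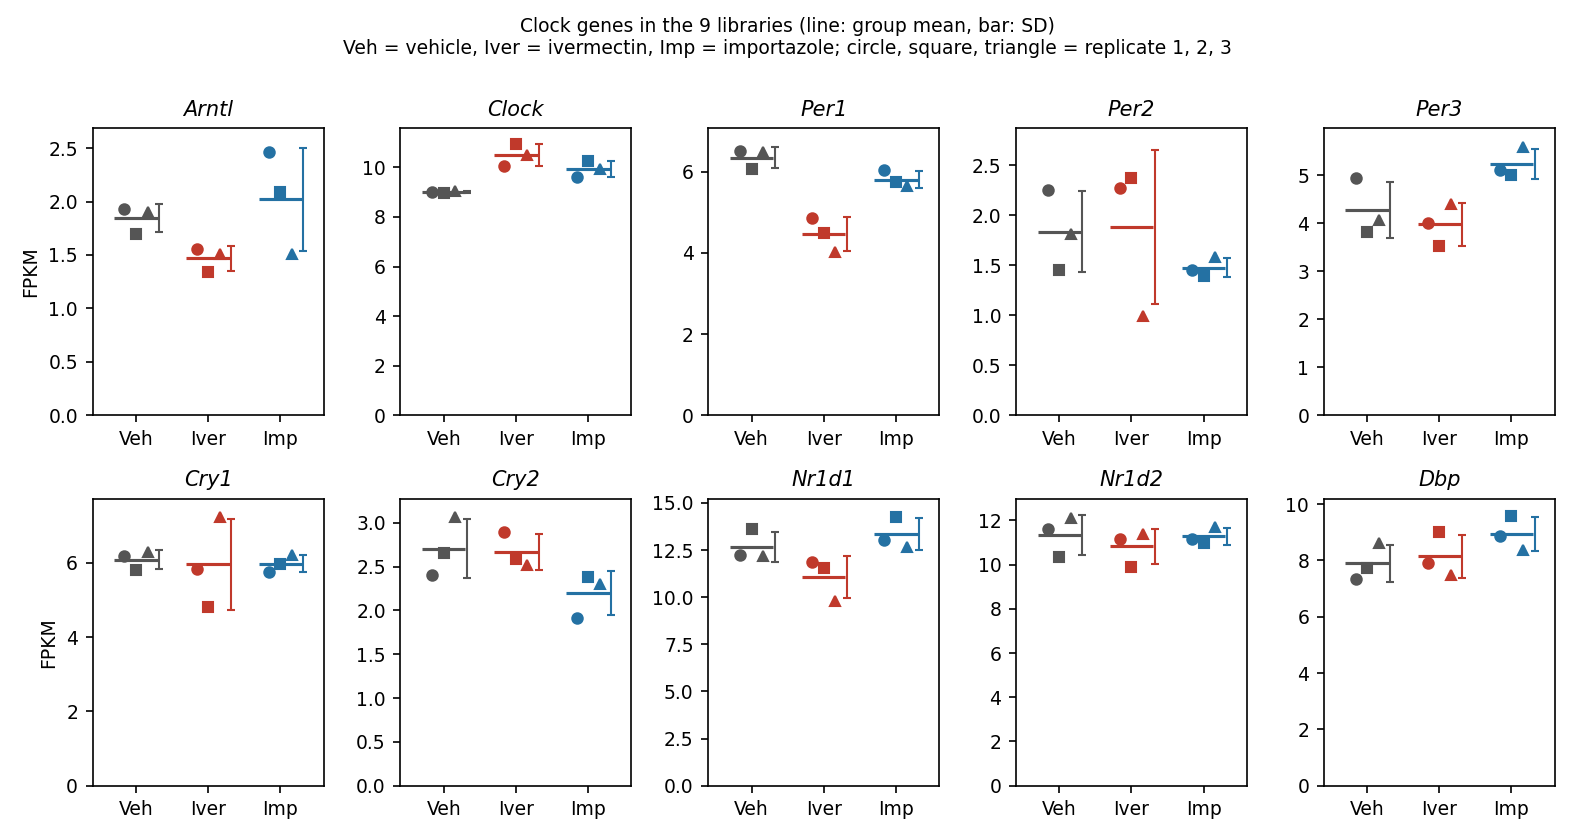
FPKM of each clock gene (vertical axis, from 0) in the 3 groups (horizontal axis), with 1 point per library, a line at the group mean and a bar for the SD. Per1 sits at 4.02 to 4.86 FPKM in the ivermectin libraries and at 5.64 or above in the other 6, while Cry1 and Nr1d2 overlap in all groups.

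Summed FPKM ran from 365259 to 416748, which does not measure library size; read numbers are not part of the files and the depth is therefore unknown. Libraries of the same group correlated at r = 0.9841 to 0.9918 and those of different groups at 0.9797 to 0.9902 (Pearson, log2 scale, over genes, which are not independent replicates). In vehicle 2 and ivermectin 3 the entry Yam1 is 0, whereas it made up 5.86% to 10.43% of summed FPKM elsewhere, so Per1 is also given without those libraries. All 8 heart muscle markers were tested, with mean levels from 9.94 to 2250 FPKM, as HL-1 cells should show; their summed level was 5526 to 6285 FPKM in vehicle, 4536 to 4939 with ivermectin and 5147 to 5541 with importazole. By limma 3 of the 8 were lower with ivermectin (Myh6, Actc1 and Myl7), and 2 were higher (Nppa and Gja1) and 2 lower (Myh6 and Actc1) with importazole. Over all genes 2.52% were called lower with ivermectin, and 1.69% higher and 0.565% lower with importazole. Between the compounds 1 of the 8, Tnnt2, was lower with ivermectin, against 2.71% of all genes. Its difference in log2(FPKM + 1) was -0.41 (limma adjusted p = 0.0416), and the call held in 7 of 19 alternatives. With ivermectin, the calls of Actc1 and Myl7 held in 7 and 5 of 19 alternatives and both ended without any 1 vehicle library, without ivermectin 1 or 2 and without importazole 1 or 2 (that of Myl7 also without importazole 3); that of Myh6 ended in 1, without vehicle 2 and ivermectin 3 together. With importazole, the calls of Gja1, Myh6, Nppa and Actc1 held in 5, 12, 15 and 19 of 19. Among markers of other cells, 2 of 6 for fibroblasts, 2 of 5 for endothelium and 1 of 4 for leukocytes were tested. Tcf21, Pdgfra, Cdh5, Csf1r and Ptprc had means under 0.1 FPKM. The tested endothelial markers Kdr and Eng had means of 7.97 and 1.23 FPKM, and the tested leukocyte marker Cd68 had 1.28 FPKM. The fibroblast sum was 23.6 to 26.6 FPKM in vehicle, 36.8 to 38.9 with ivermectin and 34.3 to 36.9 with importazole, nearly all of it Ddr2. The smooth muscle sum was 1347 to 1404, 1158 to 1279 and 1173 to 1285 FPKM in the same order, nearly all of it Acta2 and Tagln, while Myh11 had a mean of 0.0825 FPKM. Against vehicle, Ddr2 was higher in log2(FPKM + 1) by 0.59 with ivermectin (limma adjusted p = 7.02e-04). With importazole it was higher by 0.49 (limma adjusted p = 0.00379). Both calls of Ddr2 held in 19 of 19 alternatives. The part of these marker levels in the results below was not tested.

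The comparison of ivermectin with vehicle addressed whether clock transcripts differed after exposure to ivermectin at 5 µM. Whether import into the nucleus was blocked in these cells was not tested. Per1, a repressor that also responds quickly to outside signals, fell to 70.2% of its vehicle level, and no other member passed the test. Per1 was at 6.52, 6.06 and 6.48 FPKM in vehicle 1, 2 and 3, and at 4.86, 4.49 and 4.02 FPKM in ivermectin 1, 2 and 3. Every ivermectin library was below every vehicle library. The difference in log2(FPKM + 1), the scale of every difference below, was -0.43 (SE 0.0828, 95% interval -0.61 to -0.25, limma adjusted p = 0.0159). The 1 FPKM added before the log tends to shrink differences, most of all for low genes, whereas percentages use the FPKM means. With 0.1 FPKM added, the difference of Per1 was -0.50 and that of Arntl -0.31. Per1 lies on GRCm38 chromosome 11, 69095217 to 69109960, plus strand. In bulk RNA, less Per1 RNA per cell and fewer cells that express it cannot be told apart.

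The call was near the threshold. The adjusted p of Per1 by limma was 0.0598 without vehicle 1, 0.0542 without vehicle 3, 0.0919 without both libraries that list Yam1 at 0 and 0.0526 when only the 6 libraries compared were fitted, with differences of -0.42, -0.42, -0.40 and -0.43. So 1 of the 10 members was called, and it was lower; of all 11337 genes 4.31% were called, 2.52% as lower. At an unadjusted p under 0.05 limma gave 2 of the 10, against 20.7% of all genes. The members' median difference was -0.05, against 0.01 over all genes tested, and 8 of the 10 lay within 0.2 of 0, against 74.1% of all genes.

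The activators did not pass. Clock, a DNA-binding partner of BMAL1, was at 9.02, 8.95 and 9.06 FPKM in vehicle and 10.1, 10.9 and 10.5 FPKM with ivermectin. The groups did not overlap, the difference was 0.20 (95% interval 0.05 to 0.35), and the limma adjusted p was 0.132. Arntl, the gene of BMAL1, was at 1.93, 1.70 and 1.90 FPKM in vehicle and 1.55, 1.34 and 1.51 FPKM with ivermectin. These groups did not overlap either, with ivermectin lower, but the difference of -0.21 had an interval of -0.48 to 0.07 (limma adjusted p = 0.381). Both activators thus had groups that did not overlap, in opposite directions, and neither passed. Over all genes 24.6% had groups that did not overlap.

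Among the other repressors, Per2, which with Per1 forms the core of the inhibitory complex, was at 2.25, 1.45 and 1.81 FPKM in vehicle and at 2.27, 2.38 and 0.995 FPKM with ivermectin. The ivermectin libraries spanned the whole vehicle range, and ivermectin 3 was the lowest of all 9. Its difference of -0.01 had the widest interval of the members, -0.42 to 0.41. Without ivermectin 3 the difference was 0.24. Per3, Cry1 and Cry2 had differences of -0.08, -0.04 and -0.01, with intervals of -0.31 to 0.15, -0.30 to 0.21 and -0.24 to 0.22 and overlapping groups. Cry1 spread most with ivermectin, at 5.83, 4.80 and 7.23 FPKM against 6.18, 5.79 and 6.29 FPKM in vehicle. Ivermectin 3, low in Per2, was thus the highest of all libraries in Cry1.

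Nr1d1, the repressor of Arntl, was at 12.2, 13.6 and 12.2 FPKM in vehicle and 11.9, 11.5 and 9.82 FPKM with ivermectin. The groups lay just apart, with ivermectin lower, and the difference was -0.18 (95% interval -0.37 to 0.02, limma adjusted p = 0.279). Nr1d1 shares 263 exonic bases, 8.55% of its own, with Thra, a thyroid hormone receptor gene on the opposite strand. Thra was at 34.2 ± 2.55 FPKM in vehicle and 37.8 ± 1.03 FPKM with ivermectin, and no source used here says whether counting used strand, which makes the level of Nr1d1 uncertain. Nr1d2, its close relative, had a difference of -0.06 (95% interval -0.24 to 0.12). The output gene Dbp was at 7.34, 7.73 and 8.63 FPKM in vehicle and 7.92, 9.003 and 7.50 FPKM with ivermectin, which overlapped (difference 0.04, 95% interval -0.16 to 0.24). Dbp shares 539 exonic bases, 18.0% of its own, with Sphk2 on the opposite strand, at 7.62 ± 0.764 and 7.03 ± 0.692 FPKM in these groups. In all, 4 members had groups that did not overlap (Clock higher; Arntl, Per1 and Nr1d1 lower), against 24.6% of all genes, 12.4% higher and 12.2% lower.

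**Figure D2:**
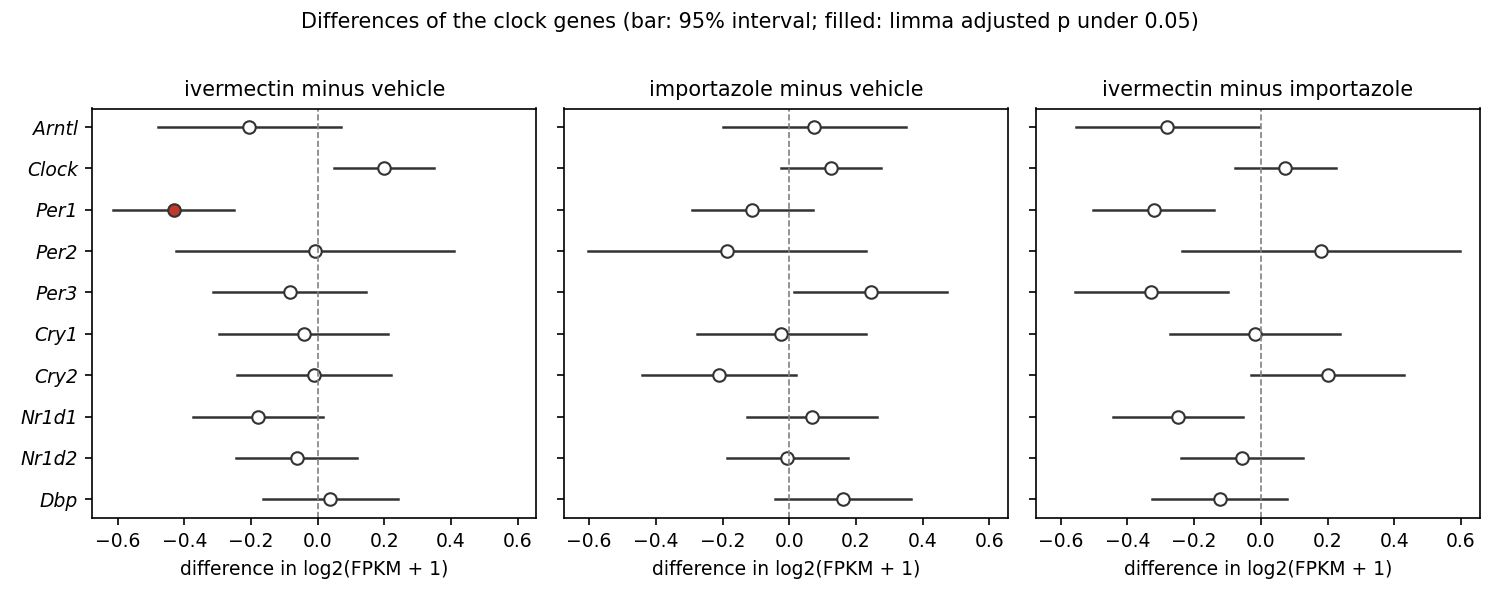
Difference in log2(FPKM + 1) of each clock gene (horizontal axis) with its 95% interval, for ivermectin minus vehicle, importazole minus vehicle and ivermectin minus importazole. The filled point is the member that passed, Per1 with ivermectin at -0.43; the intervals of Cry1, Nr1d2 and Dbp cross 0 in every panel.

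For importazole, which targets importin-β, the clock genes were set against the same 3 vehicle libraries. No member passed limma's test over all genes, of which 2.26% were called, 1.69% as higher and 0.565% as lower. At an unadjusted p under 0.05 limma gave 1 of the 10 (Per3), against 15.8% of all genes. The members' median difference was 0.03, against 0.04 over all genes. Per3, a period gene less central to the loop than Per1 and Per2, was at 4.94, 3.83 and 4.08 FPKM in vehicle and 5.11, 5.01 and 5.59 FPKM with importazole. Every importazole library was the higher, though vehicle 1 came close, and the difference was 0.24 (95% interval 0.01 to 0.47, limma adjusted p = 0.290). Per1, at 6.04, 5.75 and 5.64 FPKM, lay just below the vehicle libraries (difference -0.11, 95% interval -0.29 to 0.07). Per2 was at 1.45, 1.40 and 1.58 FPKM, inside or just below the vehicle range (difference -0.19, 95% interval -0.60 to 0.23).

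Cry2, a cryptochrome repressor, was at 2.40, 2.65 and 3.06 FPKM in vehicle and 1.91, 2.38 and 2.30 FPKM with importazole. Importazole was lower with no overlap, by a narrow margin (difference -0.21, 95% interval -0.44 to 0.02, limma adjusted p = 0.358). Cry1 was level at 5.74, 5.97 and 6.21 FPKM (difference -0.02, 95% interval -0.28 to 0.23). Clock was at 9.59, 10.3 and 9.93 FPKM, above each vehicle library (difference 0.13, 95% interval -0.03 to 0.28). Arntl ran from 1.51 FPKM in importazole 3 to 2.46 FPKM in importazole 1, the lowest and the highest of the 6 libraries without ivermectin, with a difference of 0.08 (95% interval -0.20 to 0.35). Nr1d1 and Nr1d2 had differences of 0.07 and -0.01 (95% intervals -0.13 to 0.26 and -0.19 to 0.18). Dbp was at 8.87, 9.59 and 8.38 FPKM and overlapped vehicle (difference 0.16, 95% interval -0.04 to 0.36). Groups did not overlap for 4 members (Clock and Per3 higher; Per1 and Cry2 lower), against 23.6% of all genes, 16.5% higher and 7.07% lower.

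The direct comparison of ivermectin with importazole tested where the compounds differed at these doses. No clock gene passed limma's test over all genes, of which 3.42% were called, 0.714% as higher and 2.71% as lower with ivermectin. At an unadjusted p under 0.05 limma gave 4 of the 10 (Arntl, Per1, Per3 and Nr1d1), against 19% of all genes in either direction. All 4 were lower with ivermectin. Over all genes tested, 6474 differences were negative and 4863 positive, so most genes leaned the same way. Per1 had a difference of -0.32 (95% interval -0.50 to -0.14, limma adjusted p = 0.0629), with ivermectin at 76.7% of the importazole level and no overlap. The effects of the compounds on Per1 were therefore not shown to differ. Per3 differed by -0.33 (95% interval -0.56 to -0.10, limma adjusted p = 0.118), Nr1d1 by -0.25 (95% interval -0.44 to -0.05, limma adjusted p = 0.156) and Arntl by -0.28 (95% interval -0.55 to -0.01, limma adjusted p = 0.253). Cry2 had a difference of 0.20 (95% interval -0.03 to 0.43), and Cry1, Nr1d2, Dbp and Clock had differences of -0.02, -0.06, -0.12 and 0.07. Per2 differed by 0.18, with an interval of -0.24 to 0.60 that leaves its direction unknown. Groups did not overlap for Per1, Per3, Nr1d1 and Cry2, 4 of the 10 against 24.2% of all genes, 8.04% higher and 16.1% lower with ivermectin.

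Members were also set against each other within each library. Values here are differences in log2(FPKM + 1) between a pair of genes in 1 library and are given as a description; with the pseudocount of 1 FPKM a scaling factor of a library does not cancel fully, least of all for low genes such as Arntl. Per1 minus Clock, a repressor against an activator, was -0.42, -0.50 and -0.43 in vehicle 1, 2 and 3, and -0.92, -1.12 and -1.19 in ivermectin 1, 2 and 3. In importazole 1, 2 and 3 it was -0.59, -0.74 and -0.72. The 3 groups were separate, with vehicle highest and ivermectin lowest. Each vehicle library already lay above all others in Per1 and below all others in Clock, so the separation of vehicle follows from those levels. Dbp minus Per1, the output against a repressor, was 0.27 ± 0.111 in vehicle, 0.74 ± 0.131 with ivermectin and 0.55 ± 0.0915 with importazole, with vehicle below both other groups. Clock minus Arntl was 1.82 ± 0.0592 in vehicle, 2.22 ± 0.119 with ivermectin and 1.87 ± 0.254 with importazole; its excess with ivermectin over vehicle was 0.40, and 0.55 with no pseudocount. Nr1d1 minus Arntl, the link between REV-ERBα and its target, was 2.26 ± 0.149, 2.29 ± 0.162 and 2.26 ± 0.215 in the same order, with overlapping groups. Values of the other pairs computed are not given. Among them, Nr1d1 minus Nr1d2, Cry1 minus Cry2 and Dbp minus Nr1d1 overlapped in all groups. Per1 minus Per3 had vehicle above both other groups. Per2 minus Per1 was higher with ivermectin than with importazole, and vehicle overlapped both. Across the 9 libraries, which share 3 groups, Per1 and Clock had the most negative correlation among the 45 pairs of members (Pearson r = -0.848), and Cry1 and Nr1d2 the most positive (r = 0.733).

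**Figure D3:**
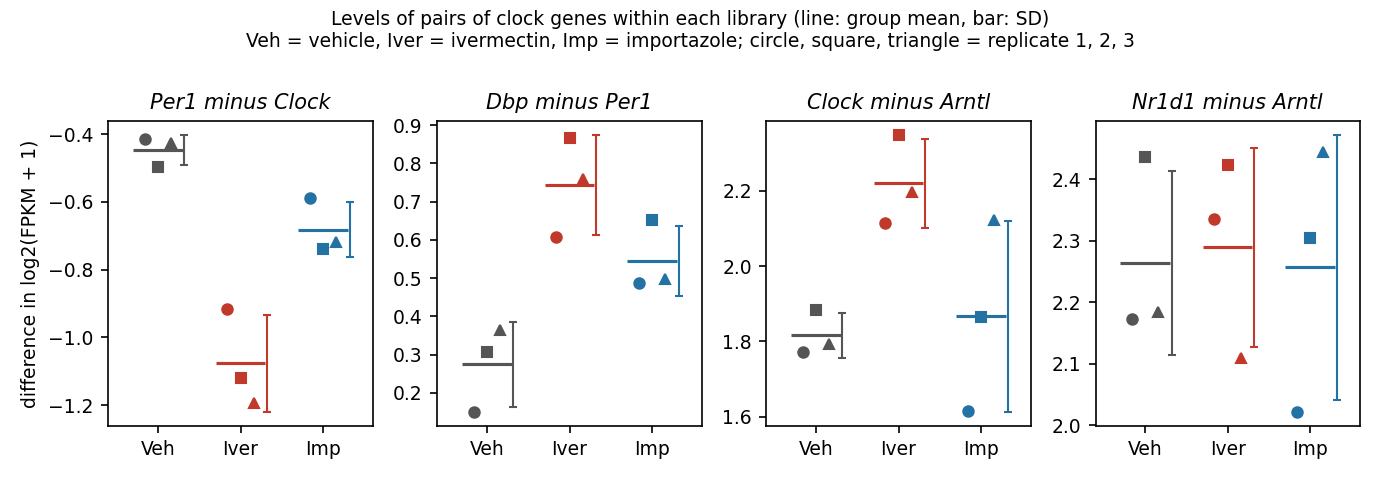
Difference in log2(FPKM + 1) between 2 clock genes of the same library (vertical axis, which does not start at 0) in each group, with 1 point per library, a line at the mean and a bar for the SD. Per1 minus Clock separates the 3 groups, from -0.42 in vehicle 1 down to -1.19 in ivermectin 3, and Nr1d1 minus Arntl overlaps in all of them.

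Among the 11 other transcription factors of the loop, 9 were tested. Bhlhe40, the gene of DEC1, which competes for E-boxes and is also induced by low oxygen, fell with ivermectin to 50.6% of its vehicle level. It was at 45.3, 47.7 and 52.6 FPKM in vehicle, 25.7, 27.6 and 20.3 FPKM with ivermectin and 55.2, 52.4 and 54.4 FPKM with importazole. The ivermectin libraries lay far below all others. The difference was -0.96 from vehicle (SE 0.102, limma adjusted p = 3.11e-04) and -1.12 from importazole (limma adjusted p = 1.1e-04). Bhlhe41, the gene of the related DEC2, was at 9.16 ± 0.483, 7.04 ± 1.52 and 10.3 ± 0.601 FPKM in vehicle, ivermectin and importazole. It did not pass from vehicle (-0.36, limma adjusted p = 0.143) or from importazole (-0.51, limma adjusted p = 0.0556).

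Rora, the gene of RORα, an activator at ROREs, was at 1.23 ± 0.3005, 0.929 ± 0.149 and 1.39 ± 0.141 FPKM and passed in no comparison. Npas2, a stand-in for Clock, and Rorb had means of 0.146 and 0.116 FPKM and were not tested. Arntl2, a relative of Arntl, was at 1.06 ± 0.344, 1.80 ± 0.404 and 1.17 ± 0.397 FPKM and did not pass.

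Ciart, which encodes a repressor of CLOCK and BMAL1, and Nfil3, whose product represses at D-boxes, were lower with ivermectin than with importazole. Ciart was at 3.48, 4.20 and 5.01 FPKM in vehicle, 3.26, 3.199 and 4.24 FPKM with ivermectin and 5.78, 5.76 and 6.41 FPKM with importazole. The importazole libraries were above all others, and the direct difference was -0.62 (limma adjusted p = 0.0214). Nfil3 was at 6.28, 4.81 and 5.92 FPKM in vehicle, 4.26, 4.42 and 4.66 FPKM with ivermectin and 6.19, 6.12 and 6.21 FPKM with importazole, a direct difference of -0.40 (limma adjusted p = 0.0457). Neither gene passed against vehicle. Leaving out any 1 ivermectin or importazole library, or vehicle 3, ended the direct call of Nfil3, with adjusted p from 0.0605 to 0.132. That of Ciart ended without ivermectin 1 or 2 or any importazole library, with adjusted p up to 0.0889. Tef and Hlf, activators at D-boxes like Dbp, passed in no comparison, with differences from vehicle of 0.11 and 0.05 for ivermectin and 0.10 and 0.03 for importazole. Of these factors, limma called 1 lower with ivermectin against vehicle, against 2.52% of all genes. With importazole against vehicle it called 0 in either direction, against 2.26%, and 1 had an unadjusted p under 0.05, against 15.8%. It called 3 lower with ivermectin than with importazole, against 2.71%. The unadjusted counts of the comparisons with ivermectin are not reported here.

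**Figure D4:**
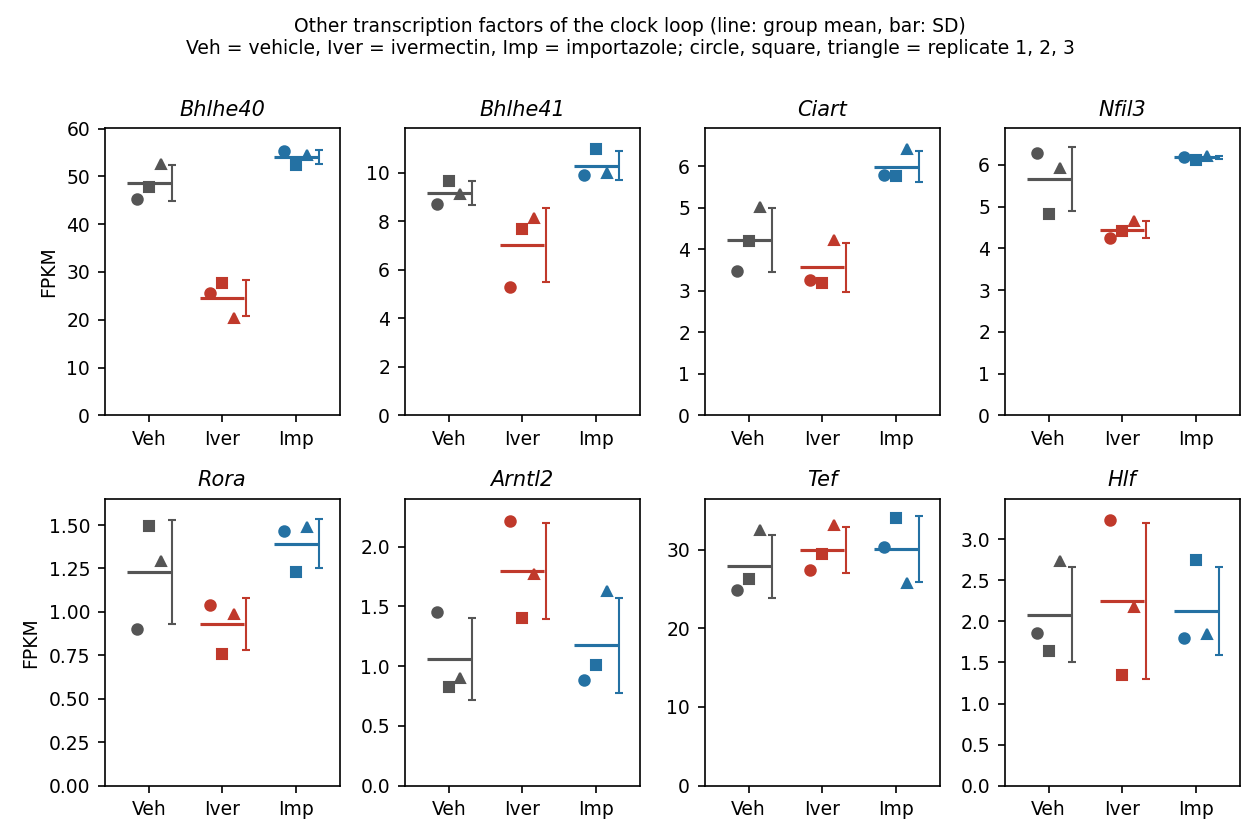
FPKM of 8 other transcription factors of the clock loop (vertical axis, from 0) in the 3 groups, with 1 point per library, a line at the mean and a bar for the SD. Bhlhe40 lies at 20.3 to 27.6 FPKM in the ivermectin libraries and at 45.3 FPKM or more in the other 6.

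Of 14 tested genes whose products modify, degrade or bind clock proteins, among them Csnk1d, Csnk1e, Btrc, Timeless and Tipin, limma called 0 in each comparison, with 1, 4 and 2 at an unadjusted p under 0.05 in ivermectin against vehicle, importazole against vehicle and ivermectin against importazole. Csnk1d, a kinase that phosphorylates PER, was at 35.2 ± 2.71, 34.7 ± 2.58 and 35.0 ± 2.49 FPKM in vehicle, ivermectin and importazole. Of 10 chromatin and corepressor genes, including Ncor1 and Hdac3, which work with REV-ERBα, limma also called 0 in each comparison, with 2, 1 and 0 at an unadjusted p under 0.05. Their median differences were 0.04, 0.11 and -0.04 in the same order, against 0.01, 0.04 and -0.03 over all genes. Over all genes limma called 4.31%, 2.26% and 3.42%, and 20.7%, 15.8% and 19% had an unadjusted p under 0.05.

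Known outputs of the clock were tested for 12 of 13 genes. None passed with ivermectin against vehicle by limma, 1 rose with importazole and 2 were lower with ivermectin than with importazole. The shares of all genes were 4.31% called either way, 1.69% called higher and 2.71% called lower, in this order. Limma's unadjusted p was under 0.05 for 4, 5 and 4 of the 12, against 20.7%, 15.8% and 19% of all genes. Usp2 is also in the list of genes that modify clock proteins, and Tef is also among the loop factors. The counts of these lists therefore share genes. Por, which passes electrons to cytochrome P450 enzymes, was at 53.2 ± 3.14 FPKM in vehicle, 44.9 ± 3.13 FPKM with ivermectin and 71.3 ± 3.40 FPKM with importazole. It differed by 0.42 between importazole and vehicle (limma adjusted p = 0.0119) and by -0.66 between the compounds (limma adjusted p = 4.09e-04). The first of these calls ended without vehicle 3 or importazole 1, with adjusted p of 0.0556 and 0.0693. Nampt, which makes a precursor of NAD, was at 16.1 ± 0.781, 14.5 ± 1.22 and 18.2 ± 0.435 FPKM. Its direct difference was -0.32 (limma adjusted p = 0.0467), which held in 5 of 19 alternatives, with adjusted p up to 0.139 without importazole 3. Klf15, an output factor in heart, was at 1.42 ± 0.208, 1.78 ± 0.270 and 1.52 ± 0.356 FPKM and did not pass, and Kcnip2, a potassium channel subunit gene under its control, was not tested at a mean of 0.167 FPKM.

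Of 9 tested genes induced by the outside cues that also act on Per1, limma called 2 lower with ivermectin against vehicle. It called 0 with importazole against vehicle and 1 lower with ivermectin than with importazole. The shares of all genes called, in this order, were 2.52% lower, 2.26% either way and 2.71% lower. Limma's unadjusted p was under 0.05, in either direction, for 6, 2 and 4 of the 9, against 20.7%, 15.8% and 19% of all genes. Sik1, a kinase gene switched on by cAMP and known to restrain resetting of the clock, was at 22.0, 20.8 and 20.9 FPKM in vehicle and 16.8, 15.9 and 15.3 FPKM with ivermectin. The groups did not overlap, and the difference was -0.39 (limma adjusted p = 0.0195). Its call ended without vehicle 1, 2 or 3 or ivermectin 2 or 3, with adjusted p up to 0.0685 for 1 library left out, and also on removing vehicle 2 and ivermectin 3 together (0.125). Fos, an immediate early gene, was at 6.94, 4.77 and 4.68 FPKM in vehicle and 2.74, 2.91 and 3.38 FPKM with ivermectin, a difference of -0.67 (limma adjusted p = 0.0354). It was at 5.67 ± 1.23 FPKM with importazole, with a direct difference of -0.72 (limma adjusted p = 0.0306). The call against vehicle held in 9 of 19 alternatives and ended without vehicle 1 or 2, any ivermectin library or importazole 1, with adjusted p up to 0.0987 for a single library left out. The direct call of Fos ended without ivermectin 1 or 2 or any importazole library, with adjusted p up to 0.106. Fkbp5 and Tsc22d3, targets of glucocorticoids, had differences from vehicle of 0.22 and 0.45 with ivermectin and did not pass.

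The genes whose levels ran most like those of 4 members were sought among 7595 genes with a mean of at least 5 FPKM. The members were left out, as were predicted genes, small RNAs and pseudogenes, recognised by their symbols. Likeness was the Pearson correlation of log2(FPKM + 1) over the 9 libraries. For Arntl they were Ucp2 (r = 0.946), Fam118a (0.919) and Ppp2r1b (0.894), and for Nr1d1 Nav2 (0.957), Pgd (0.943) and Pacs1 (0.941). For Per2 they were Fam171a2 (0.915), Eif4a3 (0.909) and Tbx20 (0.900), and for Dbp Hdac4 (0.921), Atp6v0c (0.902) and Zbtb44 (0.899). The libraries share 3 groups, and each list takes the highest of many correlations, so these values are a description.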

How the data were processed

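Bead-captured mRNA was sequenced on the Ion Proton system, per the labels' protocols. The authors' deposited files hold a symbol and an FPKM value per gene, per the file headers. STAR, Bowtie, Bowtie2 and Cufflinks, with builds mm10 and GRCm38, are listed in the submitters' processing notes; annotation, strand and filters were not found in these sources. FPKM is relative to all mapped fragments, so loss of an abundant transcript raises the others.

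For 48 repeated symbols the values were added together. The 11337 genes reaching 1 FPKM in 3 or more libraries were analysed as log2(FPKM + 1). A linear model with group as its only term was fitted to 9 libraries with limma 3.58.1 in R 4.3.3 (trend, robust empirical Bayes, two-sided, Benjamini-Hochberg over all genes tested, threshold 0.05), a procedure tested on simulated data. Alternative analyses changed the pseudocount, filter, scaling, variance estimate, threshold, libraries and replicate block. Locations and overlaps came from GENCODE M21 and promoters from RefSeq, GRCm38.p6. Figures were drawn with matplotlib 3.10.9.

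The members and gene lists were chosen with earlier results of these data known. Named genes were the members, the other loop factors (some results of the lists are not reported here), genes of the fixed lists that passed (at most 6 a list by smallest p), and the 3 most alike genes for each of 4 members. Csnk1d, Csnk1e, Btrc, Timeless, Tipin, Ncor1, Hdac3, Klf15, Kcnip2, Fkbp5 and Tsc22d3 did not pass and were chosen after their values were seen.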

Additional observations from a re-analysis of the deposited data

How the results depend on the processing

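Per1 was called with ivermectin against vehicle in 15 of 19 alternative fits, with the same direction in 19 and differences from -0.50 to -0.37. The number of clock genes called in that comparison was 1, and became 0 on removing vehicle 2 and ivermectin 3 (Yam1 at 0), 0 in the fit to the 6 libraries compared and 0 at a threshold of 0.01; leaving out 1 library gave 0 to 1. With the replicate number as a block the count was 1 (Per1, limma adjusted p = 0.0293), and the blocked fit called 0 members in the other comparisons. Deviations of same-numbered libraries from their group means correlated at -0.21 to 0.14. The labels do not say what the numbers mark, and with 3 libraries a group these values cannot decide whether they pair the samples. In both other comparisons 0 members were called under every alternative run. Among the other named genes, the block ended the calls of the heart muscle markers Actc1 and Myl7 with ivermectin and Gja1 with importazole, and of Fos (adjusted p = 0.0641 and 0.0616), Nfil3 (0.0736) and Nampt (0.0573). Without the filter the calls of Ciart, Nfil3, Nampt, Sik1 and Fos ended, as did those of Actc1 and Myl7 with ivermectin and of Myh6, Nppa and Gja1 with importazole, with more genes tested (22754), and either scaling ended those of Gja1 and of Nampt (0.0857 and 0.0716 for Nampt); quantile normalization also ended that of Myl7. The call of Tnnt2 between the compounds ended with the block, without the filter and after quantile normalization. Bhlhe40 passed in 19 of 19 alternatives in both of its comparisons, as did Por between the compounds. Over all genes, ivermectin against vehicle gave 489 calls, and 195 to 631 across alternatives. Higher to lower calls depended on scaling: importazole gave 192 to 64, or 159 to 117 after quantile normalization, and ivermectin against importazole 81 to 307, or 191 to 274. Clock minus Arntl was 0.40 higher with ivermectin than with vehicle, 0.53 with a pseudocount of 0.1 FPKM and 0.55 with none. The depth of the libraries is unknown, and members near 1 to 2 FPKM (Arntl, Per2) had the widest intervals.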
